A study of Homo sapiens with 20 samples.

Results

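A set of 50 genes that make up the machinery of DNA replication were followed in breast cancer cells treated with cisplatin, a platinum drug that crosslinks DNA, and tetrathiomolybdate (TM), a copper chelator. The genes were taken from a fixed list of names, in 3 classes, which was chosen with earlier results of these data known. The licensing class has 15 genes, the firing class 8 and the fork class 27. All 50 listed genes were found on the arrays, each with 1 transcript cluster (the set of probes that measures a gene), among 18417 genes measured in all. The cells were MDA-MB-231, an established basal-type human breast cancer cell line, and no other line was used for these arrays.

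Replication starts in 2 steps that the cell keeps apart in time. In G1 phase, the origin recognition complex (ORC1 to ORC6) with CDC6 and CDT1 loads the MCM2 to MCM7 ring onto DNA, which is called licensing, and geminin (GMNN) blocks CDT1 once S phase has begun. In S phase, the kinase CDC7 with its partner DBF4, together with MCM10, CDC45 and the GINS complex, turns the loaded ring into a moving helicase, which is called firing. At the fork, DNA polymerase alpha and primase make primers, the clamp loader RFC places the sliding clamp PCNA, polymerases delta and epsilon copy the strands, RPA covers single strands, and FEN1, DNA2, RNase H2 and LIG1 trim and join Okazaki fragments. Many of these genes are textbook targets of the E2F transcription factors.

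The 20 arrays fall into 7 groups. Cells received both drugs for 24 h (Cis/TM 24 h, n = 3) or 12 h (Cis/TM 12 h, n = 3), 36 µM cisplatin for 24 h (Cis 24 h, n = 3) or 12 h (Cis 12 h, n = 3), 10 µM TM for 24 h (TM 24 h, n = 3) or 12 h (TM 12 h, n = 2), or no drug (Control, n = 3). Vehicle controls at each time are described in the methods, but the labels give the 3 Control arrays no time, so the same 3 arrays served both times and all 6 comparisons with Control share them. The methods describe treatment of replicate wells of 6-well plates, and whether the wells of a group came from separately grown cultures is not said, so p-values measure the spread between such wells.

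The values are the authors' RMA values on a log2 scale, and the number of arrays limits their precision. A gene was called raised or lowered at an adjusted p under 0.05 (limma, Benjamini-Hochberg over the 18417 genes) and a fold change over 1.5. The array medians ran from 5.71 to 5.94. Of the 4 markers this mesenchymal-like line expresses, VIM, CD44 and CAV1 were high on every array, and EGFR, at 7.10 to 8.79, was lowered in Cis/TM 12 h, Cis 24 h and Cis 12 h, as was CAV1 in Cis 12 h. Of 5 luminal markers, ESR1, PGR and CDH1 were low (at most 4.23). GATA3 (5.13 to 6.44) and FOXA1 (5.67 to 6.53) were not, and FOXA1 was raised by 0.61 in Cis 24 h. None of 4 markers of other cell types, PTPRC among them (at most 3.49), was called against Control. Array A of Cis 12 h and array A of TM 24 h were below the other arrays of their groups in the means of all 3 classes, and they had the highest medians of the 20 arrays. The SD of all values on an array was 2.01 to 2.03 in Control, 2.03 in Cis 12 h A and 2.04 in TM 24 h A. On every other treated array it was larger, 2.10 to 2.18. What part this difference in spread has in the changes against Control was not tested. Serial numbers in the labels run in blocks by group, so group and order of handling cannot be told apart. In RNA from whole cultures, a larger share of cells in S phase and more RNA of a gene per cell cannot be told apart.

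Replication genes were mostly higher in treated cells than in Control. Of the 50 genes, 23 were called raised in Cis/TM 24 h, against 4.54% of all genes, and none was lowered (2.48% of all genes). In Cis/TM 12 h, 20 were raised (15.2% of all genes) and 2 lowered (8.55%). Cis 24 h raised the most of the 6 groups, 34 of 50 (11.5% of all genes), with 0 lowered (4.9%). Cis 12 h raised 18 (14.8%) and lowered 6 (10.8%), the most lowered of any group. TM 24 h raised 17 (5.16%) and lowered 0 (2.55%), and TM 12 h raised 22 (8.99%) and lowered 0 (3.11%). Where 0 were lowered by limma, 0 were lowered at an unadjusted p below 0.05 past the same fold minimum as well. The median log2 fold change of the 50 genes was 0.57 at 24 h and 0.44 at 12 h with both drugs, 0.69 at 24 h and 0.29 at 12 h with cisplatin alone, and 0.43 at 24 h and 0.53 at 12 h with TM alone. The median over all genes lay between −0.05 and −0.002 in the same comparisons.

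**Figure D1:**
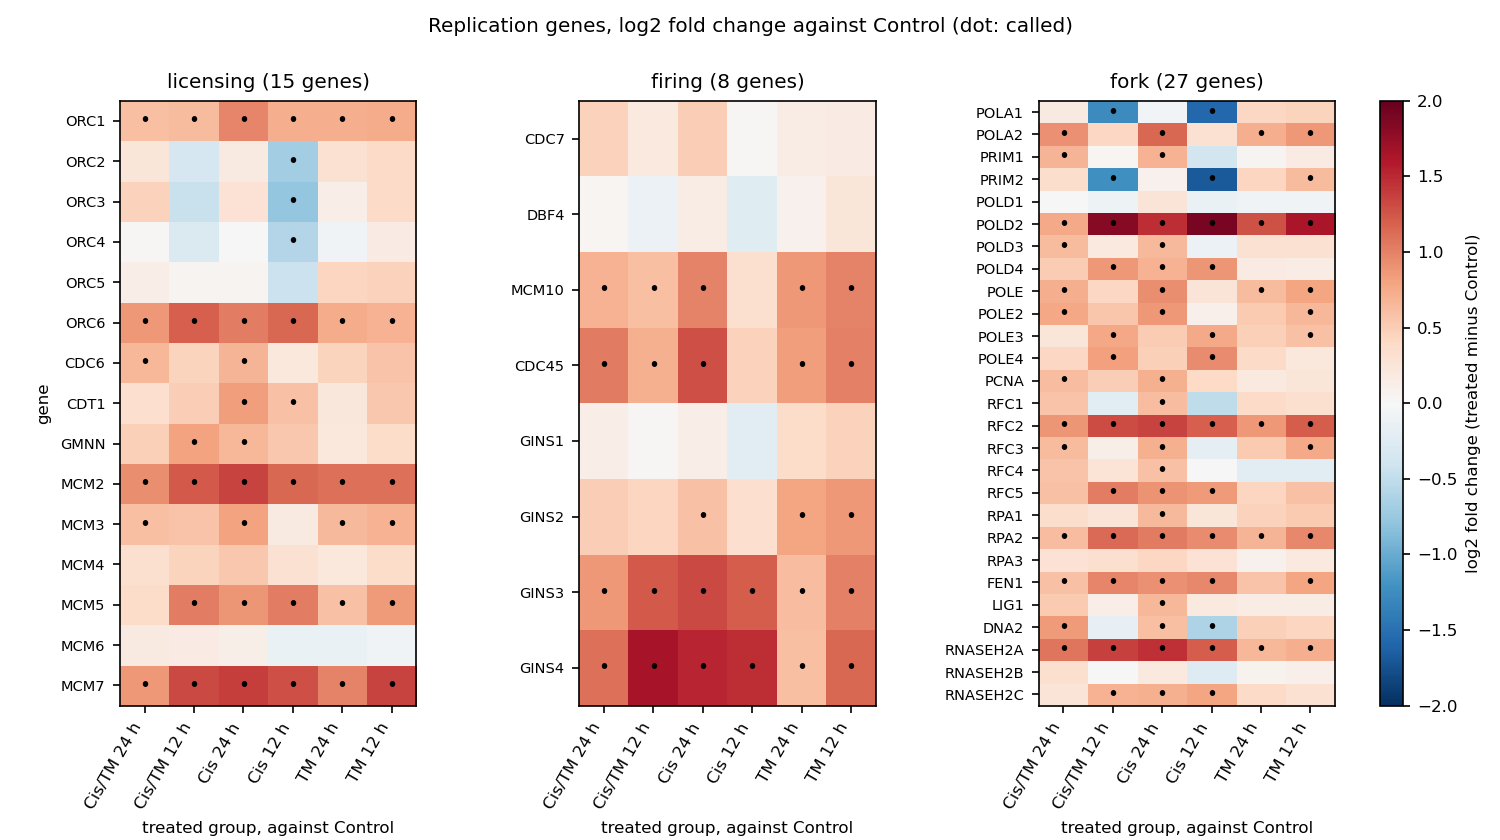
Log2 fold change against Control (colour, from −2 to 2) of the 15 licensing, 8 firing and 27 fork genes (rows) in 6 treated groups (columns), where a dot marks a gene called raised or lowered. The 10 genes raised in every comparison carry a dot in all 6 columns, POLD2 and MCM7 among them, and the blue cells lie mainly in the columns of Cis 12 h and Cis/TM 12 h.

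The level of the genes moved with this result. By mean array signal, which also depends on the probes, the 50 genes stood at a median percentile of 82.5 among all genes. In these arrays the log2 fold change against Control rises with the level of a gene. With that trend subtracted, 14 of the 50 were raised at 24 h (2.79% of all genes) and 14 at 12 h (10.8%) with both drugs, 22 at 24 h (6.33%) and 16 at 12 h (11.0%) with cisplatin alone, and 8 at 24 h (2.89%) and 14 at 12 h (5.48%) with TM alone. Centring each array on its median instead shifted the median of all genes by −0.03 (Cis/TM 24 h) to −0.15 (Cis 12 h) and left 19, 17, 26, 16, 12 and 20 of the 50 raised in the same order, and in Cis 12 h it turned the calls over all genes to 11.0% raised and 16.7% lowered. For the other groups the counts after centring stand without the share of all genes, so they do not show how the 50 stood beside all genes. What part the trend has in the rise of these genes was not tested further.

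In all 6 comparisons, 10 genes were raised, namely ORC1, ORC6, MCM2, MCM7, GINS3, GINS4, POLD2, RFC2, RPA2 and RNASEH2A. They include members of all 3 classes. With the trend subtracted, 4 of them (MCM2, MCM7, POLD2 and RFC2) were raised in all 6. When 1 array at a time was left out, ORC6, MCM2, MCM7 and RFC2 stayed raised in all 6 comparisons every time. MCM5, MCM10, CDC45 and FEN1 were raised in 5 of the 6. At the other end, 13 genes were raised in none: ORC2, ORC3, ORC4, ORC5, MCM4, MCM6, CDC7, DBF4, GINS1, POLA1, POLD1, RPA3 and RNASEH2B. The share of all genes raised in all 6 comparisons, or in none, was not counted. Since the 6 comparisons share the same Control arrays, a gene with low Control values tends to be raised in several of them.

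The MCM ring, the origin recognition complex, GINS, polymerase delta, RPA and RNase H2 each held genes raised in all 6 and genes raised in none. In polymerase delta the gene raised in none was POLD1, whose mean signal of 5.58 was below the array medians. The median log2 fold changes of the licensing, firing and fork classes were 0.46, 0.59 and 0.58 at 24 h of both drugs, with 0.50, 0.51 and 0.41 at 12 h. Cisplatin gave 0.68, 0.79 and 0.69 at 24 h, with 0.31, 0.33 and 0.26 at 12 h. For TM they were 0.43, 0.61 and 0.43 at 24 h, with 0.54, 0.93 and 0.45 at 12 h. In the main fit, firing genes had the highest median of the 3 classes in all 6 comparisons, although with 8 genes and a range that overlaps the others this was not tested. Under median centring, 14 class medians moved by more than the SD between arrays of a group and 4 did not. With the trend subtracted, 15 moved, 1 changed sign and 2 did neither. The order of the classes under these settings is not given here. Of the fork class, 20 of 27 were raised in Cis 24 h (11.5% of all genes), against 6 of 27 in TM 24 h (5.16% of all genes). Of the licensing class, 9 of 15 were raised in Cis 24 h and 6 of 15 in each of the other 5 groups. In those 5 groups, 4.54% to 15.2% of all genes were raised.

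**Figure D2:**
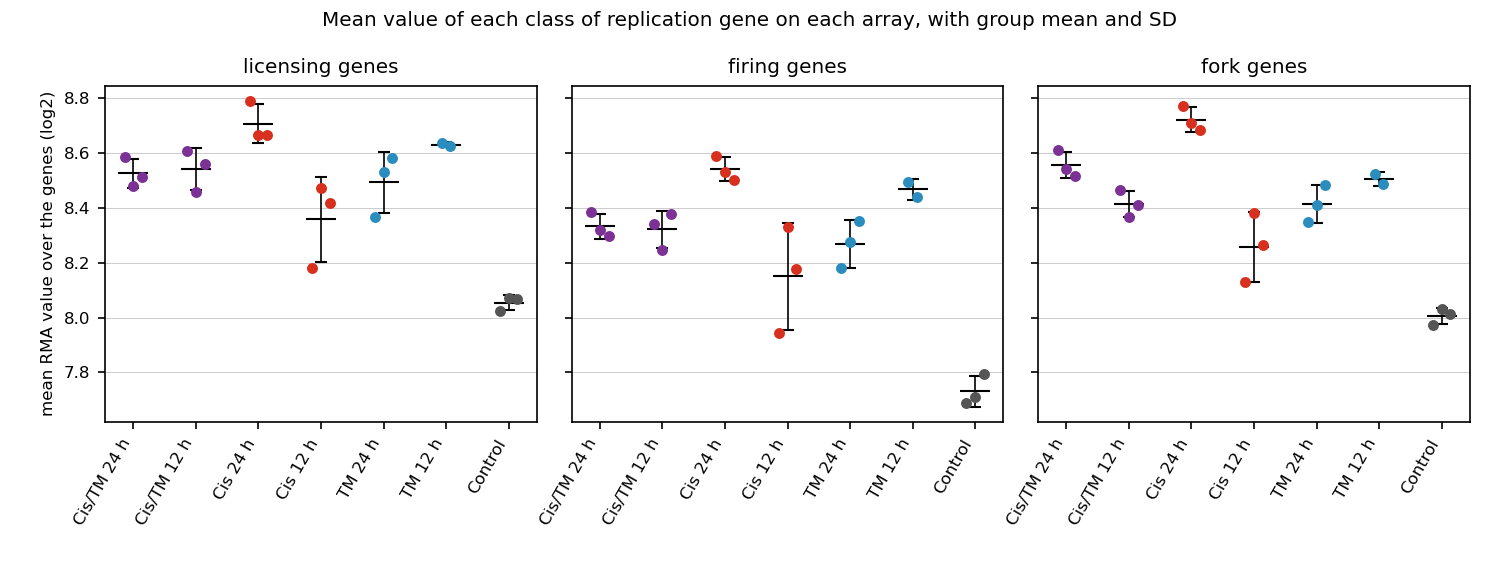
Mean RMA value (log2) of the licensing, firing and fork genes on each of the 20 arrays (points), with the mean and SD of each group (black), treated groups to the left of Control. All treated arrays lie above the 3 Control arrays in each class, and Cis 12 h A is the lowest treated array in each.

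Promoter sequences were looked up for what the genes share beyond their values, since many are known E2F targets. RefSeq (GRCh38.p14) gave the bases from 250 before to 50 after the start for 43 of the 50 genes. Both strands were searched for the E2F words TTTCCCGC, TTTGGCGC, TTTCGCGC and TTCCCGCC, of which the first and the last can overlap in 1 stretch. At least 1 word was found in 23 of the 43 genes (53.5%), against 6.03% of all 27305 genes in the table. Since a gene can have several promoters there, the share of single promoters was lower, 5.03% of 35116. By class this was 8 of 13 licensing genes, 4 of 7 firing genes and 11 of 23 fork genes. The CCAAT box, searched as CCAAT on both strands, was in 25 of the 43 genes (58.1%), against 39.7% of all genes in the table and 34.6% of single promoters. An E2F word was found for 4 of the 8 genes with a promoter entry that were raised in all 6 comparisons, for 14 of the 24 raised in 1 to 5, and for 5 of the 11 raised in none. Windows around the words are shown for 3 genes raised in all 6 comparisons (MCM7, RFC2, GINS3), 1 raised in 4 (MCM3) and 3 raised in none (MCM6, ORC3, POLA1), of which ORC3 and POLA1 were lowered in Cis 12 h. Capitals mark the E2F words, and a match is a match of letters, not a bound site.
MCM7 (chr7:100101388-100101426, minus strand): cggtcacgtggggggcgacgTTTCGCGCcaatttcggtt
RFC2 (chr7:74254390-74254425, minus strand): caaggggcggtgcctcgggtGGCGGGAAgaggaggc
GINS3 (chr16:58392446-58392480, plus strand): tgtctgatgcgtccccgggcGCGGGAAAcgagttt
MCM3 (chr6:52284733-52284766, minus strand): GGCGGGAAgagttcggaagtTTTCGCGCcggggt
MCM6 (chr2:135876502-135876549, minus strand): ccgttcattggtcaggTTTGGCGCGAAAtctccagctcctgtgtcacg
ORC3 (chr6:87590103-87590144, plus strand): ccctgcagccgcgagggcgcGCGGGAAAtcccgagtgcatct
POLA1 (chrX:24693761-24693808, plus strand): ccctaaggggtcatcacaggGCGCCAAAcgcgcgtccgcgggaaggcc
MCM6, with overlapping words in its window, showed no call in any group. MCM3, with separate words in its window, was raised in 4, and MCM7, with 1 word in the window shown, in all. Words outside the windows are not shown, and words were not counted per gene.

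Among licensing genes, the MCM ring was uneven. MCM7 had RMA values of 9.80, 9.76 and 9.57 at 24 h and 10.27, 10.08 and 10.16 at 12 h with both drugs, 10.34, 10.21 and 10.14 at 24 h and 10.07, 10.29 and 10.05 at 12 h with cisplatin alone, and 9.76, 9.79 and 9.96 at 24 h and 10.17 and 10.23 at 12 h with TM alone, against 8.89, 9.17 and 8.47 in Control. Every treated array was above every Control array. The log2 fold changes were 0.86, 1.33, 1.39, 1.30, 0.99 and 1.35 in the same order, and the adjusted p was highest in Cis/TM 24 h (SE 0.14, adjusted p = 2.27e-04).

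MCM2, another subunit of the ring, had 0.93 at 24 h and 1.23 at 12 h with both drugs, 1.35 at 24 h and 1.15 at 12 h with cisplatin alone, and 1.10 at 24 h and 1.10 at 12 h (log2 fold changes, all called) with TM alone. Its arrays read 7.71, 7.54 and 7.47 in Cis 24 h, against 6.62, 6.02 and 6.03 in Control. MCM5 was raised by 1.03 in Cis/TM 12 h and by 1.03 in Cis 12 h, and its value of 0.37 in Cis/TM 24 h was not called. MCM3 was raised in 4 groups, from 0.60 in Cis/TM 24 h up to 0.81 in Cis 24 h.

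MCM4 and MCM6, which sit side by side with the other subunits in the same ring, were called in no group. MCM6 read 9.16, 9.02 and 9.05 in Cis/TM 24 h, 8.97, 8.98 and 9.08 in Cis 24 h, 8.38, 8.92 and 8.96 in Cis 12 h and 8.80 and 8.83 in TM 12 h, against 8.91, 8.91 and 8.85 in Control. The 6 log2 fold changes of MCM6 lay between −0.14 and 0.19, and that in Cis 24 h had a 95% confidence interval of −0.14 to 0.38. MCM4 was higher than Control by 0.20 to 0.53, below the fold minimum.

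The origin recognition complex split in the same way. ORC6, its smallest member, had 10.72, 10.78 and 10.82 in Cis/TM 12 h and 10.64, 10.72 and 10.82 in Cis 12 h, against 9.55, 9.49 and 9.71 in Control, and was raised by 1.19 (SE 0.09, adjusted p = 3.51e-09) and 1.14 (SE 0.09, adjusted p = 4.19e-09). ORC1, the ATPase subunit that is degraded and remade each cycle in human cells, was raised by 0.60 in Cis/TM 24 h up to 0.98 in Cis 24 h. It had 7.64, 7.24 and 7.44 in Cis 24 h, against 6.06, 6.75 and 6.58 in Control, where Control A was the lowest.

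ORC2, ORC3 and ORC4, which belong to the stable core of the complex, were lowered in Cis 12 h. ORC3 had 9.53, 9.43 and 9.48 at 24 h and 8.40, 8.64 and 8.66 at 12 h with both drugs, and 9.35, 9.28 and 9.31 at 24 h and 7.79, 8.50 and 8.47 at 12 h with cisplatin alone, against 9.01, 8.89 and 9.16 in Control. In Cis 12 h it was below every Control array and fell by 0.77 (SE 0.14, adjusted p = 1.55e-04). ORC2 fell by 0.70 (SE 0.14, adjusted p = 4.12e-04) and ORC4 by 0.59 (SE 0.17, adjusted p = 0.00839), while ORC5 had −0.43 and was not called. Under TM none of ORC2 to ORC5 was called, with values from −0.07 (ORC4, TM 24 h) to 0.46 (ORC5, TM 12 h).

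Of the loading factors, CDC6 was raised in both 24 h groups with cisplatin, by 0.66 in Cis/TM 24 h and 0.68 in Cis 24 h. CDT1 was raised under cisplatin alone, by 0.84 at 24 h and 0.59 at 12 h. Its inhibitor geminin (GMNN) was raised by 0.80 in Cis/TM 12 h and 0.67 in Cis 24 h. CDT1 had 6.84, 6.82 and 6.45 in Cis 24 h, against 5.99, 5.94 and 5.68 in Control, with no overlap.

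Among firing genes, CDC45, MCM10 and 3 of the 4 GINS genes were raised in at least 3 groups, and CDC7 and DBF4 were called in none. CDC45, which joins MCM and GINS in the active helicase, had 9.67, 9.43 and 9.38 at 24 h and 9.33, 9.0 and 9.18 at 12 h with both drugs, 9.83, 9.79 and 9.62 at 24 h and 8.75, 9.19 and 8.80 at 12 h with cisplatin alone, and 9.26, 9.12 and 9.48 at 24 h and 9.50 and 9.44 at 12 h with TM alone, against 8.38, 8.59 and 8.40 in Control. All treated arrays were above the Control arrays, yet Cis 12 h, at 0.46, was the 1 group below the fold minimum. CDC45 was raised by 1.04 in Cis/TM 24 h, 1.29 in Cis 24 h (SE 0.13, adjusted p = 4.58e-07) and 1.01 in TM 12 h. MCM10, which helps to activate the helicase, was likewise called in every group but Cis 12 h, with 0.99 in Cis 24 h, 0.32 in Cis 12 h (not called) and 1.0 in TM 12 h.

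In the GINS complex, GINS4 had the largest single rise of the class. Its values were 7.33, 7.06 and 7.15 in Cis/TM 12 h and 6.84, 7.22 and 6.96 in Cis 12 h, against 5.85, 5.05 and 5.68 in Control, with log2 fold changes of 1.65 (SE 0.17, adjusted p = 1.84e-07) and 1.48 (SE 0.17, adjusted p = 5.99e-07). GINS3 was raised by 1.23 in Cis/TM 12 h, 1.31 in Cis 24 h and 1.21 in Cis 12 h. GINS2 differed, with calls in Cis 24 h (0.59), TM 24 h (0.79) and TM 12 h (0.87). GINS1 was called in none and lay between −0.22 and 0.45.

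The kinase CDC7 was called in no group, at 0.45 in Cis/TM 24 h and 0.48 in Cis 24 h and at most 0.20 in the other 4. Its activator DBF4 lay between −0.24 and 0.23, none called. Its mean signal of 5.41 was below the array medians, and the values carry no detection call.

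At the fork, POLD2, the second subunit of polymerase delta, had the largest single rise of all 50 genes. Its arrays read 8.97, 9.03 and 8.80 at 24 h and 10.16, 9.87 and 9.95 at 12 h with both drugs, 9.73, 9.62 and 9.59 at 24 h and 9.94, 10.22 and 10.02 at 12 h with cisplatin alone, and 9.44, 9.36 and 9.55 at 24 h and 9.82 and 9.78 at 12 h with TM alone, against 8.65, 8.33 and 7.52 in Control. No treated array overlapped Control, although Control C lay well below the other two. The log2 fold change was 0.77 at 24 h and 1.83 at 12 h with both drugs, 1.48 at 24 h and 1.90 at 12 h (SE 0.18, adjusted p = 6.79e-08) with cisplatin alone, and 1.28 at 24 h and 1.63 at 12 h with TM alone. The other delta subunits were unlike it. POLD1, the catalytic subunit, was called in none (from −0.13 to 0.26). Its mean signal of 5.58 was below the array medians, and the values carry no detection call. POLD3 was raised in Cis/TM 24 h (0.64) and Cis 24 h (0.66), and POLD4 in Cis/TM 12 h (0.87), Cis 24 h (0.69) and Cis 12 h (0.89).

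**Figure D3:**
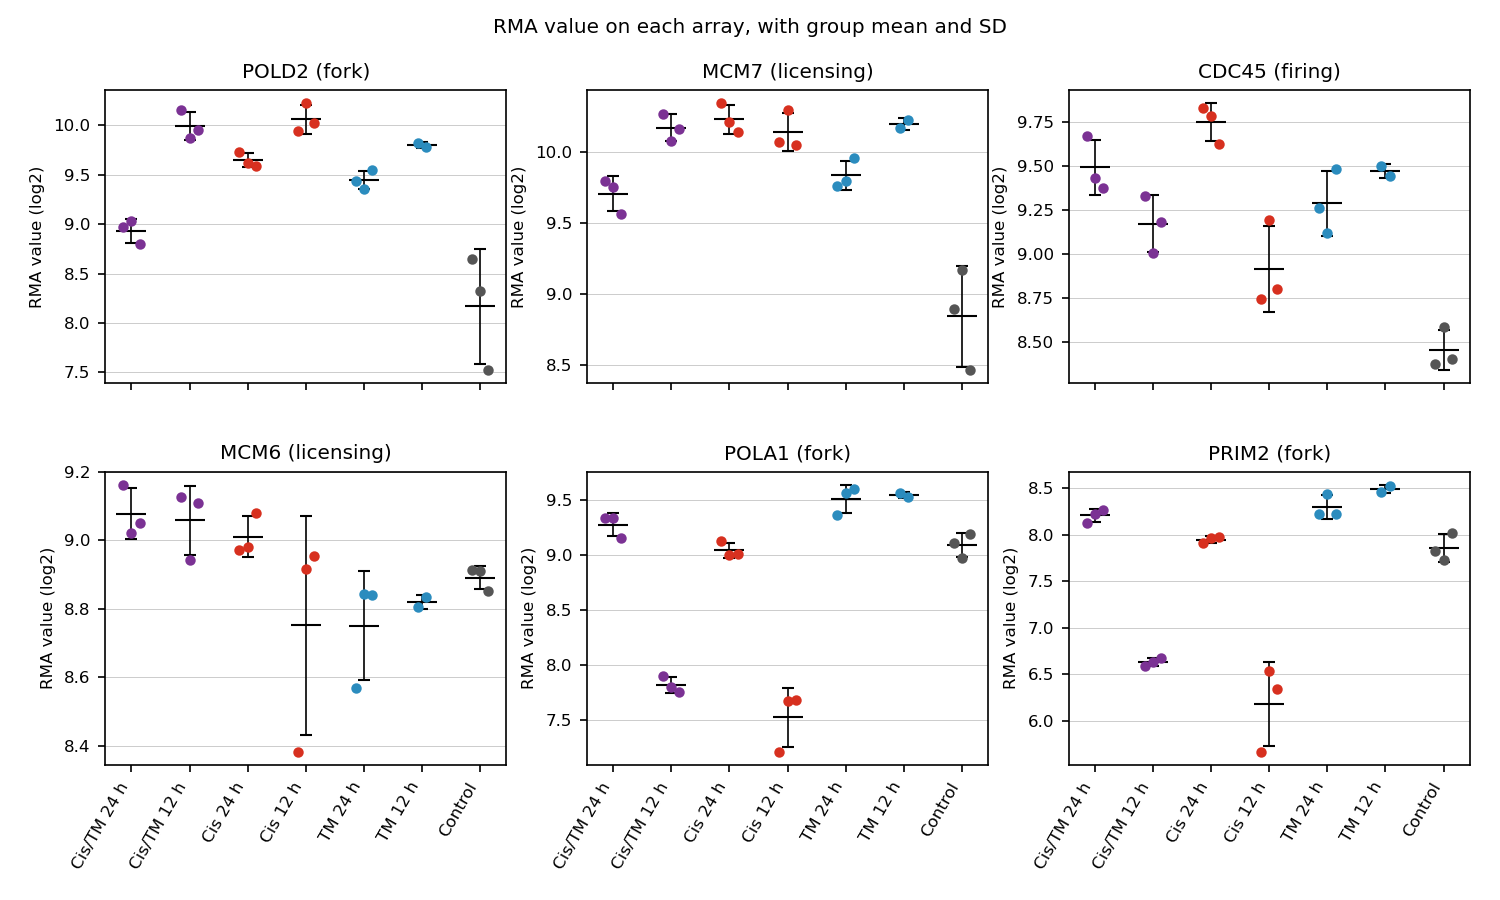
RMA value (log2) of POLD2, MCM7, CDC45, MCM6, POLA1 and PRIM2 on each array (points) by group, with group mean and SD (black) and a separate vertical scale for each gene. POLD2 and MCM7 lie above Control in every treated group, MCM6 stays near Control, and POLA1 and PRIM2 lie below all 3 Control arrays in Cis/TM 12 h and Cis 12 h only.

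Polymerase alpha and primase, which together make the primers, gave the largest falls. POLA1, the catalytic subunit, had 9.34, 9.34 and 9.15 at 24 h and 7.90, 7.81 and 7.76 at 12 h with both drugs, 9.12, 9.0 and 9.01 at 24 h and 7.22, 7.68 and 7.69 at 12 h with cisplatin alone, and 9.36, 9.57 and 9.60 at 24 h and 9.56 and 9.52 at 12 h with TM alone, against 9.11, 8.98 and 9.19 in Control. It fell by 1.27 in Cis/TM 12 h (SE 0.12, adjusted p = 5.14e-08) and by 1.56 in Cis 12 h (SE 0.12, adjusted p = 3.01e-09), and its 24 h and TM values were not called. PRIM2, the large primase subunit, had 8.13, 8.23 and 8.27 at 24 h and 6.58, 6.63 and 6.68 at 12 h with both drugs, 7.91, 7.96 and 7.97 at 24 h and 5.67, 6.53 and 6.34 at 12 h with cisplatin alone, and 8.22, 8.44 and 8.22 at 24 h and 8.46 and 8.52 at 12 h with TM alone, against 7.82, 7.73 and 8.02 in Control. It fell by 1.23 in Cis/TM 12 h (SE 0.15, adjusted p = 1.90e-06) and by 1.68 in Cis 12 h (SE 0.15, adjusted p = 2.85e-08), and it was raised in TM 12 h by 0.63 (SE 0.17, adjusted p = 0.0102).

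Their partners were not called lowered in any group. POLA2, the second subunit of polymerase alpha, had 0.30 in Cis 12 h (not called) and was raised by 0.91 in Cis/TM 24 h, 1.15 in Cis 24 h and, with TM alone, 0.72 at 24 h and 0.87 at 12 h. PRIM1, the catalytic primase subunit, had −0.36 in Cis 12 h (not called) and was raised by 0.67 in Cis/TM 24 h and 0.70 in Cis 24 h. DNA2, a nuclease of Okazaki fragment processing, fell by 0.61 in Cis 12 h (SE 0.11, adjusted p = 1.09e-04) and was raised by 0.85 in Cis/TM 24 h and 0.60 in Cis 24 h. It was the only gene called in opposite directions at the 2 times of cisplatin alone.

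The 6 falls in Cis 12 h rested in part on 1 array. Without Cis 12 h A, 3 genes were called lowered, ORC2, POLA1 and PRIM2, since ORC3 and DNA2 (−0.54 each) were under the fold minimum and ORC4 (−0.34) missed the adjusted p as well, and without Cis 12 h B the count was 7. The count raised in Cis 12 h stayed at 17 or 18 whichever array was left out.

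Polymerase epsilon, the leading strand polymerase, had its catalytic subunit POLE raised by 0.72 in Cis/TM 24 h, 0.93 in Cis 24 h and, with TM alone, 0.63 at 24 h and 0.80 at 12 h. POLE2 was raised in Cis/TM 24 h, Cis 24 h and TM 12 h (0.77, 0.87 and 0.66). The small histone-fold subunits POLE3 and POLE4 had their highest values at 12 h instead. POLE4 was raised by 0.83 in Cis/TM 12 h and 0.95 in Cis 12 h, and POLE3 by 0.77 in Cis/TM 12 h, 0.76 in Cis 12 h and 0.59 in TM 12 h.

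For the clamp loader, RFC2 was raised in all 6 groups, while the other 4 subunits were raised in 1 to 3. RFC2 read 9.77, 9.67 and 9.74 in Cis/TM 12 h, 9.87, 9.83 and 9.64 in Cis 24 h, 9.48, 9.75 and 9.63 in Cis 12 h and 9.66 and 9.60 in TM 12 h, against 8.38, 8.64 and 8.25 in Control. It was raised by 1.30 in Cis/TM 12 h, 1.35 in Cis 24 h (SE 0.10, adjusted p = 1.93e-08), 1.20 in Cis 12 h and 1.20 in TM 12 h. No treated array overlapped Control. RFC1, the large subunit, was raised only in Cis 24 h (0.62) and had −0.50 in Cis 12 h, not called. RFC4 was raised only in Cis 24 h (0.59), and RFC3 in Cis/TM 24 h, Cis 24 h and TM 12 h. RFC5 was raised in Cis/TM 12 h (1.02), Cis 24 h (0.90) and Cis 12 h (0.85).

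The clamp itself, PCNA, was raised by 0.62 in Cis/TM 24 h and 0.72 in Cis 24 h. RPA2, the middle subunit of the single-strand binding protein, was raised in all 6 groups, from 0.61 in Cis/TM 24 h to 1.13 in Cis/TM 12 h. RPA1 was raised in Cis 24 h (0.66), and RPA3, the smallest subunit, in none.

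Okazaki fragment genes were led by RNASEH2A, the catalytic subunit of RNase H2, with 9.27, 9.13 and 9.15 in Cis/TM 12 h and 9.41, 9.27 and 9.17 in Cis 24 h, against 7.95, 8.02 and 7.48 in Control. It was raised by 1.36 in Cis/TM 12 h (SE 0.12, adjusted p = 3.56e-08) and by 1.47 in Cis 24 h (SE 0.12, adjusted p = 4.62e-08). Of its partners, RNASEH2C was raised in 3 groups, by at most 0.78 in Cis 12 h, and RNASEH2B in none. FEN1, the flap nuclease, was raised in 5 groups and had 0.57 in TM 24 h, just under the fold minimum. LIG1, the ligase that seals the fragments, was raised in Cis 24 h (0.67).

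The genes lowered in Cis 12 h had longer spans than the genes raised in all 6 comparisons. Gene span (the distance between the ends of a gene in RefSeq, GRCh38.p14) had a median of 89.4 kb for the 6 genes lowered in Cis 12 h, 54.7 kb for the 13 raised in no group and 14.7 kb for the 10 raised in all 6. The sets overlap, since ORC2, ORC3, ORC4 and POLA1 are both among the lowered genes and among those raised in no group. PRIM2 spans 425 kb and POLA1 303 kb. In Cis 12 h, the 7 genes over 80 kb had a median log2 fold change of −0.59 and the 9 genes under 10 kb one of 0.97. In TM 12 h the same 7 genes had a median of 0.45 and the same 9 one of 0.70. All genes on the arrays showed the same direction in Cis 12 h, with medians of −0.38 over 80 kb and 0.12 under 10 kb.

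Across the 50 genes, Spearman's rho between span and log2 fold change was −0.25 at 24 h and −0.71 at 12 h with both drugs, −0.46 at 24 h and −0.72 at 12 h with cisplatin alone, and −0.20 at 24 h and −0.16 at 12 h with TM alone. Across all 18388 genes with a span it was −0.10, −0.31, −0.19, −0.39, −0.07 and −0.01 in the same order. Without POLA1 and PRIM2 the value in Cis 12 h was −0.68 over 48 genes. These values describe the genes of 1 set of arrays, with the same 3 Control arrays in every comparison, and genes are not independent replicates. Whether span itself has a part in the falls was not tested.

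**Figure D4:**
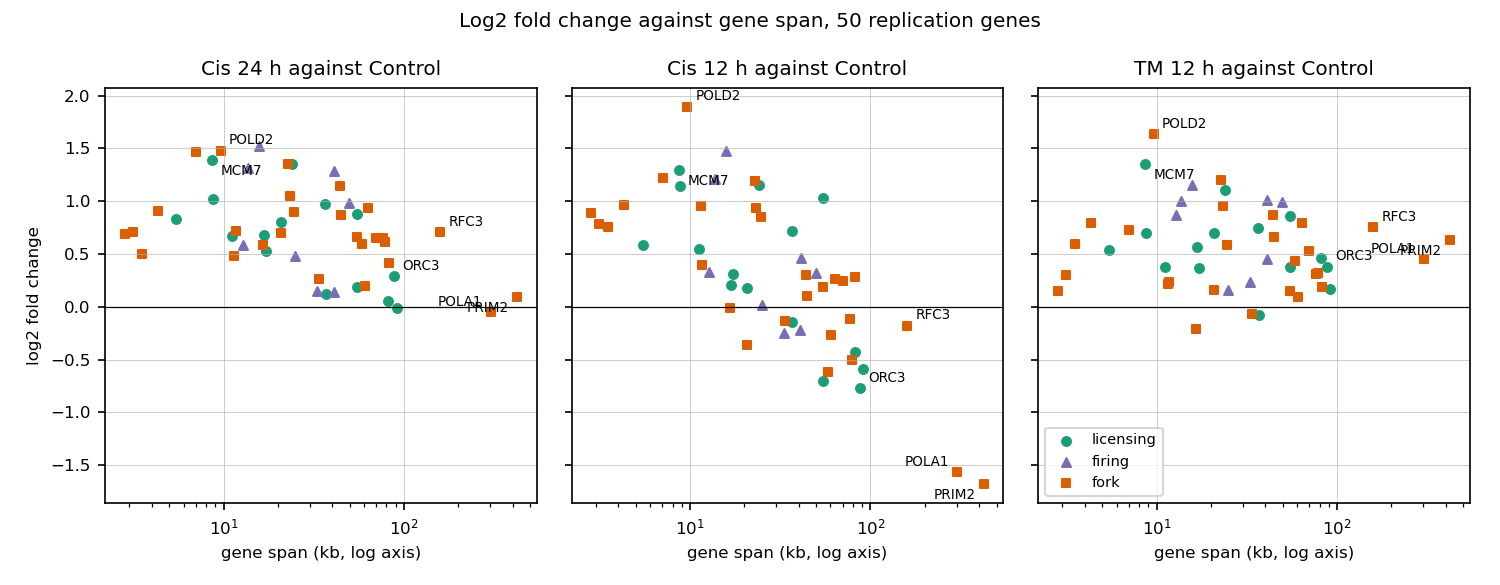
Log2 fold change against Control (vertical axis) by gene span in kb (horizontal log axis) for the 50 genes in Cis 24 h, Cis 12 h and TM 12 h, with the class shown by marker. In Cis 12 h the values go down with span to POLA1 (−1.56) and PRIM2 (−1.68), while in TM 12 h both of these genes lie above 0.

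Between the 2 times, several replication genes were higher at 24 h than at 12 h of cisplatin. The Control arrays have no time label, so in all contrasts between times drug effect and time in culture cannot be told apart. In Cis 24 h against Cis 12 h, 16 of the 50 genes were raised (7.21% of all genes) and 0 lowered (3.42%). The largest differences were those of the genes that were low at 12 h, PRIM2 with 1.77 (SE 0.15, adjusted p = 1.92e-07) and POLA1 with 1.51 (SE 0.12, adjusted p = 6.82e-08). DNA2 (1.21), RFC1 (1.12) and ORC3 (1.06) followed. The count was 11 without Cis 12 h A. CDC45, MCM10, POLA2 and PRIM1 were also raised.

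In Cis/TM 24 h against Cis/TM 12 h, 6 were raised (5.67% of all genes) and 2 lowered (8.07%). PRIM2 (1.58), POLA1 (1.45), DNA2 (1.01) and ORC3 (0.91) were raised again. The 2 genes lowered were POLD2 (−1.06, SE 0.18, adjusted p = 1.80e-04) and MCM5 (−0.66). In TM 24 h against TM 12 h, 0 genes of the 50 were called (0.00543% of all genes, which is 1 gene), and 0 at an unadjusted p below 0.05 past the same fold minimum. There the differences lay between −0.56 (GINS4, 95% confidence interval of −0.96 to −0.16) and 0.16 (POLE4), which does not show that the times were alike.

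Adding TM to cisplatin gave few calls among these genes. In Cis/TM 12 h against Cis 12 h, 0 of the 50 were called, as were 0% of all genes, and at an unadjusted p below 0.05 past the fold minimum it was 0 of the 50 and 52 genes in all. MCM7 differed by 0.03 (95% confidence interval of −0.25 to 0.32), and the 50 differences lay between −0.13 (POLE4) and 0.48 (ORC5). Of these, 43 were above 0 (median 0.16), against 8659 of all 18417 genes. The comparison includes array Cis 12 h A, which was low in the class means. In Cis/TM 24 h against Cis 24 h, POLD2 was the 1 gene called (1.5% of all genes), lowered with a log2 difference of −0.71 (SE 0.18, adjusted p = 0.0371). That call was lost, leaving 0, without array A or B of Cis 24 h, A or B of TM 12 h, C of Cis/TM 12 h, or B or C of Cis/TM 24 h. RFC2 (−0.47, adjusted p = 0.0188), CDT1 (−0.51, adjusted p = 0.0327) and MCM7 (−0.53, adjusted p = 0.0384) passed limma's p and not the fold minimum. At 24 h, 9 of the 50 differences were above 0 (median −0.16), against 8828 of all 18417 genes. The shifts of the set at 12 h and 24 h were not tested.

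Adding cisplatin to TM gave more calls at 12 h. In Cis/TM 12 h against TM 12 h, 3 were raised (6.61% of all genes) and 6 lowered (6.98%). The lowered genes were led by PRIM2 (−1.86, SE 0.17, adjusted p = 1.15e-07) and POLA1 (−1.72, SE 0.13, adjusted p = 1.23e-08), and the raised ones were POLD4, RNASEH2A and POLE4. In Cis/TM 24 h against TM 24 h, 2 were called (6.28% of all genes), RFC4 with 0.78 and PRIM1 with 0.61, both raised, and the count was 1 without Cis/TM 24 h A.

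The single drugs were set against each other at each time. In Cis 24 h against TM 24 h, 6 were raised (5.32% of all genes) and 0 lowered (3.23%), namely GINS4 (0.93), RNASEH2A (0.81), RFC4 (0.80), GINS3 (0.70), PRIM1 and CDT1. In Cis 12 h against TM 12 h, 2 were raised (6.9% of all genes), POLD4 and POLE4 with 0.73 each, and 11 lowered (10.3%). PRIM2 (−2.31) and POLA1 (−2.01) again led, followed by ORC3 (−1.15) and ORC2 (−1.08). The count called was 20 without Cis 12 h B and at least 11 without any other single array, and TM 12 h had only 2 arrays.

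The interaction term (the value under both drugs, minus that under each drug alone, plus that of Control) asks whether the log2 changes of the drugs added up. At 24 h, 24 of the 50 genes were below additive (11.4% of all genes) and 0 above (5.08%), and at 12 h 17 were below (6.87%) and 0 above (3.43%). POLD2 had −2.0 at 24 h (SE 0.26, adjusted p = 3.63e-05) and −1.70 at 12 h (SE 0.28, adjusted p = 6.59e-04). In plain terms, POLD2 was 0.77 above Control under both drugs at 24 h, while cisplatin alone gave 1.48 and TM alone 1.28. MCM7 had −1.52 at 24 h and −1.32 at 12 h, MCM2 −1.52 and −1.03, and RFC2 −1.34 and −1.10 in the same order. MCM10 (−1.16) was next at 24 h and GINS3 (−0.99) at 12 h. Both terms hold the same 3 Control arrays with a plus sign, so a low Control value lowers the term. The count at 12 h was 11 without TM 12 h A.

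Genes around the core machinery were taken as listed sets, also chosen with earlier results of these data known. Their counts stand beside the share of all genes called in the same comparison. Over all genes, 4.54% were raised at 24 h and 15.2% at 12 h with both drugs, 11.5% at 24 h and 14.8% at 12 h with cisplatin alone, and 5.16% at 24 h and 8.99% at 12 h with TM alone. The shares lowered were 2.48% and 8.55% with both drugs, 4.9% and 10.8% with cisplatin alone, and 2.55% and 3.11% with TM alone, each at 24 h and then 12 h.

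Of 10 G1/S regulators, 5 were raised at 24 h and 6 at 12 h with both drugs, 6 at 24 h and 5 at 12 h with cisplatin alone, and 3 at 24 h and 5 at 12 h with TM alone, and 0 were lowered in any. The raised genes are 30% to 60% of the list, against 4.54% to 15.2% of all genes, and 2.48% to 10.8% of all genes were lowered. E2F1, an E2F family member that drives S-phase genes, was raised in all 6, by 1.13 in Cis/TM 24 h and 1.43 in Cis 24 h. E2F2 and E2F3 of the same list were not called in Cis 24 h (0.53 and −0.07), Cis 12 h (0.34 and −0.41) or TM 12 h (0.17 and 0.29). CCNE1, the cyclin that starts S phase with CDK2, was raised by 1.92 in Cis/TM 12 h and 1.88 in Cis 12 h, and its values of 0.33 in TM 24 h and 0.45 in TM 12 h were not called. CDC25A, which activates CDK2, was raised most under TM, by 1.31 in TM 24 h and 1.28 in TM 12 h.

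Of 11 deoxynucleotide supply genes measured, 4 (36.4%) were raised at 24 h and 2 (18.2%) at 12 h with both drugs, 5 (45.5%) at 24 h and 2 (18.2%) at 12 h with cisplatin alone, and 1 (9.09%) at 24 h and 2 (18.2%) at 12 h with TM alone. The 12 h shares with cisplatin, alone or with TM, were near those of all genes, and 1 gene each was lowered in Cis 12 h and TM 24 h. TK1, thymidine kinase, was raised in all 6 groups, by 1.85 in Cis 24 h. The ribonucleotide reductase subunits RRM1 and RRM2 were raised in Cis/TM 24 h (0.72 and 0.78) and Cis 24 h (0.74 and 0.79).

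Of 12 replication-coupled chromatin factors, 4 (33.3%) were raised at 24 h and 2 (16.7%) at 12 h with both drugs, 5 (41.7%) at 24 h and 3 (25%) at 12 h with cisplatin alone, and 2 (16.7%) at 24 h and 4 (33.3%) at 12 h with TM alone. In Cis 12 h 2 (16.7%) were lowered, and 0 in the other groups. The histone chaperone ASF1B was raised by 1.79 in Cis/TM 12 h and 1.90 in Cis 12 h, whereas its relative ASF1A fell by 0.66 in Cis 12 h.

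Of 21 accessory initiation and fork factors, 5 (23.8%) were raised at 24 h and 5 (23.8%) at 12 h with both drugs, 8 (38.1%) at 24 h and 2 (9.52%) at 12 h with cisplatin alone, and 3 (14.3%) at each time with TM alone. The share raised in Cis 12 h was below that of all genes, and 6 (28.6%) were lowered there, with 1 lowered in Cis/TM 12 h and 1 in Cis 24 h.

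Of 11 G2/M genes, 2 (18.2%) were raised and 2 (18.2%) lowered in Cis/TM 24 h, 1 (9.09%) was raised and 4 (36.4%) lowered in Cis/TM 12 h, and likewise in Cis 12 h. In Cis 24 h and in TM 12 h 2 were raised, in TM 24 h 1, and 0 were lowered in these 3 groups. CENPF, a kinetochore protein, fell by 1.12 in Cis/TM 12 h and 1.28 in Cis 12 h, and BUB1, a checkpoint kinase, by 0.78 and 1.18 in the same groups. AURKB, the kinase of the chromosomal passenger complex, was raised in all 6 groups, by 1.37 in Cis 24 h.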

How the data were processed

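RNA of MDA-MB-231 cells was measured on Affymetrix Human Gene 1.0 ST arrays. The deposited values are log2 values that the authors made with RMA (background correction, quantile normalization and probe summary), and the RMA version is not given in the sources used here. Labels give Trizol and the methods RNeasy for RNA extraction. Of 33297 transcript clusters, 21214 had a symbol in the platform annotation, 1754 of these several, which were left out. The remaining 19460 gave 18417 genes, each by its cluster of highest mean. Of the surrounding pathway lists, 1 gene had no cluster.

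One limma model (version 3.58.1, R 4.3.3) with 7 group means took in the 20 arrays and left 13 residual degrees of freedom, with Benjamini-Hochberg adjustment over the 18417 genes and a fold minimum of 1.5. The median standard error of a comparison between groups was 0.135 on the log2 scale. The fit was tested on simulated data. The 50 genes and the other lists were chosen with earlier results of these data known. All 50 genes could be named. Statistics are given for up to 10 called genes in comparisons with Control and up to 5 in others, and other lists name up to 4 called genes by p. Spans and promoters came from RefSeq (GRCh38.p14). Median centring, quantile normalization, subtraction of the trend with level, a filter on the lowest 25% of genes, averaged clusters, a trended and robust eBayes, fits to only the groups compared, unadjusted p, a 2-fold minimum, a replicate block and leaving out each array were tried.

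The letters A to C were not used to pair the arrays in the main fit. Deviations of same-lettered arrays correlated at a median of 0.0083 over 57 pairs (range −0.42 to 0.61). Pairs of unlike letters were not correlated beside them, so these values cannot exclude pairing.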

Additional observations from a re-analysis of the deposited data

Results flagged for a closer look

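These comparisons set a treatment at 24 h against the same treatment at 12 h, or test the interaction of the drugs, by the limma contrast itself. No Control of known time could be subtracted, so in the contrasts between times drug effect and time in culture cannot be told apart. In Cis 24 h against Cis 12 h, 16 of the 50 genes were called, with log2 differences of 1.769 for PRIM2, 1.513 for POLA1, 1.21 for DNA2, 1.12 for RFC1 and 1.058 for ORC3. In Cis/TM 24 h against Cis/TM 12 h, 8 were called, with 1.578 for PRIM2, 1.453 for POLA1, −1.062 for POLD2, 1.011 for DNA2 and 0.9141 for ORC3. In TM 24 h against TM 12 h, 0 were called by limma, and 0 at an unadjusted p below 0.05 past the fold minimum.

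The interaction of the drugs was called for 24 genes at 24 h, with −1.996 for POLD2, −1.522 for MCM2, −1.52 for MCM7, −1.339 for RFC2 and −1.159 for MCM10. At 12 h it was called for 17, with −1.703 for POLD2, −1.321 for MCM7, −1.099 for RFC2, −1.026 for MCM2 and −0.9871 for GINS3. Both share the 3 Control arrays, of which Control C was the lowest for POLD2 and MCM7. Single outlying arrays within groups of 2 or 3 were not tested.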

How the results depend on the processing

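Counts are of the 50 genes. In this section the share of all genes called under the same setting is not printed beside them. The counts therefore do not show how the 50 genes stood beside all genes. With a fold minimum of 2, the genes raised against Control were 3 at 24 h and 11 at 12 h of Cis/TM, 11 at 24 h and 9 (with 2 lowered) at 12 h of Cis, and 2 at 24 h and 7 at 12 h of TM. The same minimum called 2 in Cis/TM 12 h against TM 12 h, 5 in Cis 12 h against TM 12 h, 6 in Cis 24 h against Cis 12 h, 4 in Cis/TM 24 h against Cis/TM 12 h, 4 and 12 in the interactions at 12 h and 24 h, and 0 in the 3 comparisons between drugs at 24 h. Quantile normalization raised 15 in Cis/TM 24 h, and under TM 9 at 24 h and 13 at 12 h. Subtracting the trend with level raised 14 in Cis/TM 24 h, 22 in Cis 24 h and, under TM, 8 at 24 h and 14 at 12 h, lowered 4 in Cis/TM 12 h, called 3 in Cis 24 h against TM 24 h and 0 in Cis/TM 24 h against Cis 24 h, and turned the fork median in Cis 12 h to −0.00489. Median centring called 20 in Cis 12 h against TM 12 h and 0 in Cis/TM 24 h against Cis 24 h. Without Cis 12 h A and TM 24 h A, a setting chosen after seeing the data, 3 were lowered in Cis 12 h.

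Leaving out 1 array gave 3 (Cis 12 h A) to 7 (Cis 12 h B) lowered in Cis 12 h, 11 (Cis 12 h A) to 20 (Cis 12 h B) called in Cis 12 h against TM 12 h, 0 to 1 in Cis/TM 24 h against Cis 24 h, 1 (Cis/TM 24 h A) to 3 (TM 24 h C) in Cis/TM 24 h against TM 24 h, and 11 (TM 12 h A) to 19 (Cis/TM 12 h A or Control B) in the interaction at 12 h. With the replicate block, the genes raised numbered 23 (24 h) and 20 (12 h) under Cis/TM, 34 and 18 under Cis, and 17 and 22 under TM. Of 142 calls against Control, 35 were lost when at least 1 array was left out, 24 under median centring, 42 under quantile normalization, 46 with the trend subtracted and 1 with the replicate block. The cause of these losses was not tested. The number of arrays, 2 or 3 a group, limits the precision.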
